A study of Mus musculus with 6 samples.

Results

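The genes described here encode transporters and enzymes of glycolysis and lactate handling, with 4 enzymes of the pentose phosphate pathway and 4 genes of the hypoxia response. They were chosen by symbol. The 36 symbols were found in 37 of the 55487 genes of the table, since Aldoa stood for 2 gene IDs, and the counts below are over these 37 genes. All 37 held at least 10 counts in every library and entered the test, among 15332 genes tested in all.

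Glycolysis splits glucose into pyruvate in a chain of enzyme steps, and pyruvate is then either reduced to lactate and exported or passed to the mitochondrion through pyruvate dehydrogenase. The pentose phosphate pathway branches off at glucose 6-phosphate and yields NADPH and ribose. HIF-1, the transcription factor of the hypoxia response, is known to drive many glycolytic genes, and resting hematopoietic stem cells in the low-oxygen bone marrow are known for a strong reliance on glycolysis, whereas proliferating and differentiating progenitors raise both glycolysis and mitochondrial metabolism.

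RNA was sequenced from LSKs (Lin- Sca-1+ c-Kit+ bone marrow cells, the fraction that contains the hematopoietic stem and early progenitor cells). The cells came from male mice aged 8 to 10 weeks, at day 13 after 5.0 Gy of total body irradiation. The control group comprised 3 libraries from wild-type (Tespa1+/+) littermates, and the other group 3 libraries from Tespa1-/- mice, which carry the B6.129S-Tespa1 tm1Smoc knockout allele and had been backcrossed to C57BL/6. Irradiation was common to both groups, and unirradiated mice were not analysed here. Whether a library came from 1 mouse or from a pool was not stated, and p-values measure the spread between these libraries, which may be partly technical. The total count was 12856630 to 30576981 per library.

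Tespa1 itself, the deleted gene, stood at 34.5, 32.7 and 35.95 CPM in the Tespa1+/+ libraries and at 15.3, 14.3 and 14.2 CPM in the Tespa1-/- libraries. It was thus lower in each Tespa1-/- library but still counted (CPM, the count scaled by the library total after TMM normalisation). Reads by exon were not analysed here, so reads outside the deleted part were not set apart. Kit, which encodes the c-Kit of the sort, was present in every library, at 322 to 341 CPM in Tespa1+/+ and 165 to 177 CPM in Tespa1-/-. All 11 genes of a neutrophil list were higher in Tespa1-/-, with a summed level of 22.1 to 24.6 CPM in Tespa1+/+ and 505 to 537 CPM in Tespa1-/-. In the Tespa1+/+ libraries, 1 or 2 of the 11 were at 0 counts. Of the 5 lineage genes of the sort, Ly6g, which defines mature neutrophils, was at 0 in each Tespa1+/+ library and at 0.323 to 0.551 CPM in Tespa1-/-, and Cd3e, which defines T cells, at 0.222 to 0.440 CPM in Tespa1+/+ and at 0 in Tespa1-/-; both were too low to be tested. Ly6c2 rose, while Itgam (29.6 to 31.7 CPM against 10.3 to 27.5) and Ptprc (207 to 221 CPM against 131 to 192) did not pass. Of an erythroid list 5 of 7 genes tested rose and 2 fell, with a sum of 29.0 to 29.8 CPM in Tespa1+/+ and 49.9999 to 54.1 CPM in Tespa1-/-. Of 6 monocyte and macrophage genes 1 rose and 3 fell, with a sum of 264 to 279 CPM against 199.6 to 249 CPM. The 5 genes of a primary granule list, which mark granulocyte progenitors, summed to 10907 to 11637 CPM in Tespa1+/+ and 17958 to 18774 CPM in Tespa1-/-. Of the 7 genes of an LSK list 6 fell, and their summed level was 1217 to 1258 CPM in Tespa1+/+ and 711 to 732 CPM in Tespa1-/-. Over all genes tested, 31.5% rose and 31.8% fell at the same threshold, an adjusted p under 0.05. The part of these shifts in the results below was not tested, and in bulk libraries more or fewer cells of a type and more or less RNA per cell cannot be told apart.

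Most of the pathway was higher in the Tespa1-/- libraries, but before a correction for gene length, described below, its first steps were not. With edgeR's quasi-likelihood test, 22 of the 37 genes rose at an adjusted p under 0.05, 8 fell and 7 did not pass. Over all genes tested, 31.5% rose and 31.8% fell by the same rule. The median log2 fold change (Tespa1-/- over Tespa1+/+) of the 37 genes was 0.28, beside -0.00034 for all genes tested. With a fold over 1.5 required as well, 9 of the 37 rose and 4 fell, against 14.0% and 19.2% of all genes. The 2 groups of libraries did not overlap for 31 of the 37 genes, against 69.1% of all genes. The summed level of the 37 genes was 7925, 8269.5 and 8297 CPM in Tespa1+/+ and 11002, 10949.9 and 11003 CPM in Tespa1-/-, with no overlap.

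**Figure D1:**
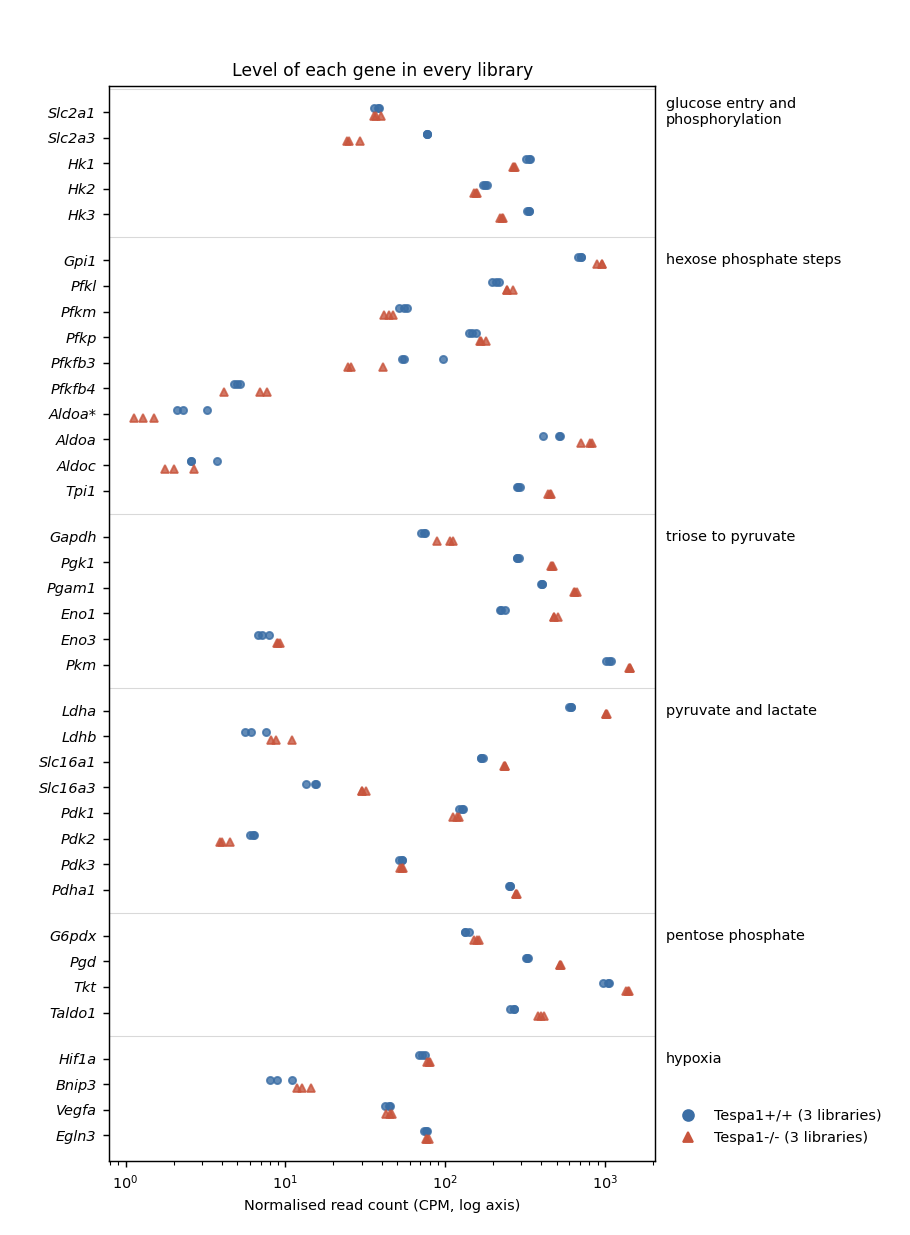
Normalised read count (CPM, log axis) of each of the 37 genes in each library, grouped by role; circles are the 3 Tespa1+/+ libraries, triangles the 3 Tespa1-/- libraries, and Aldoa* is the second gene ID under that symbol. The triangles lie left of the circles for Slc2a3, Hk1, Hk2 and Hk3, and right of them for all 6 genes from Gapdh to Pkm and all 4 pentose phosphate genes.

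Fold change was related to gene length in these libraries, and the relation bears on several of these genes. Spearman's rho of fold change against the length of the merged annotated exons was -0.47 across all genes tested and -0.21 across the 37 genes, which describes genes of the same 6 libraries. A correction that takes out the length trend in each library gave a median log2 fold change of 0.11 for all genes. That of the 37 genes was raised to 0.40. Both medians moved up, so a value after the correction is to be read beside the 0.11 of all genes. After it, 24 of the 37 genes rose and 5 fell, against 36.5% and 22.3% of all genes. A total of 25 genes passed with the same sign with and without the correction, and 5 changed sign, of which Hk1, Hk2 and Pdk1 are described below with both values and the other two, Pdk3 and Egln3, did not pass either way.

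**Figure D2:**
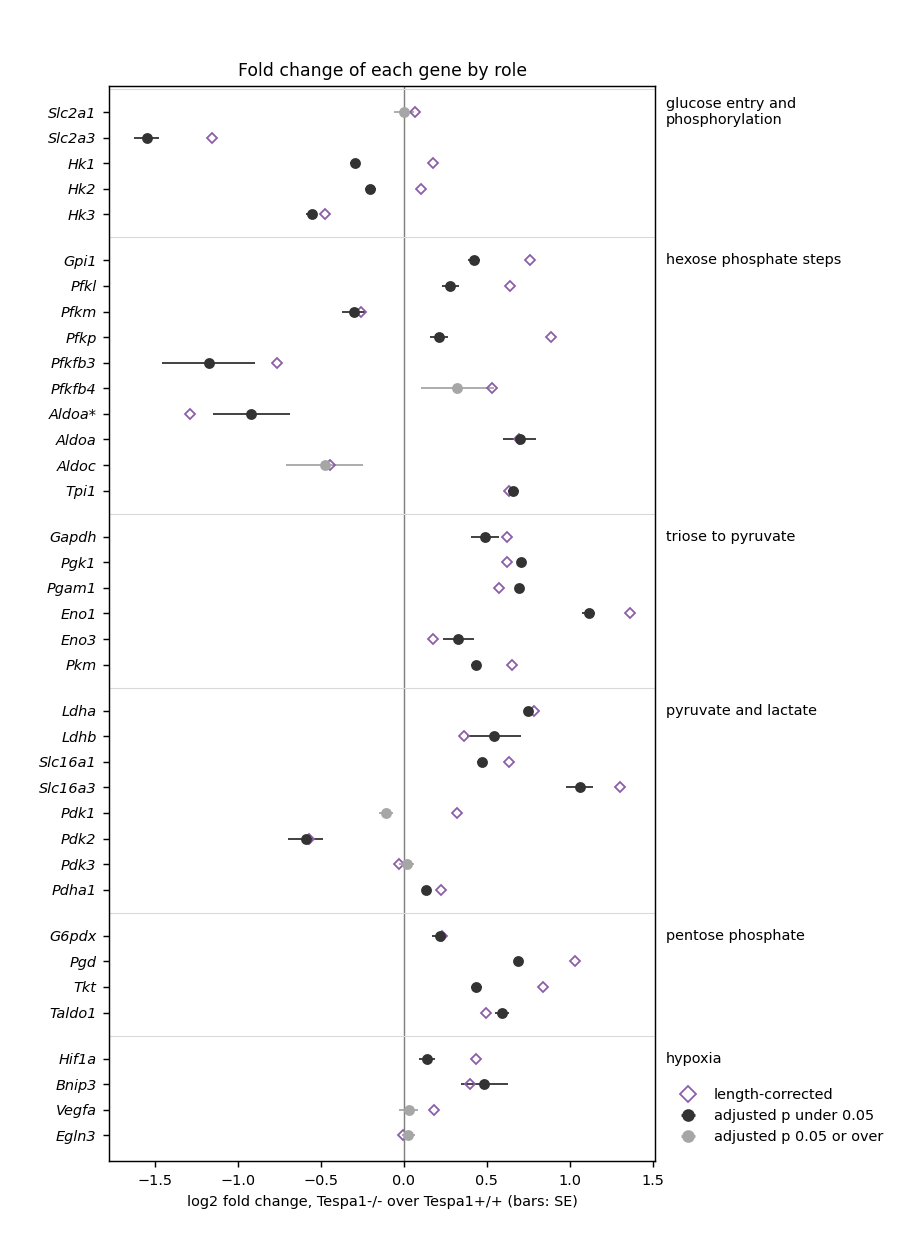
Log2 fold change (Tespa1-/- over Tespa1+/+) of each gene by role, with its standard error; dark circles passed an adjusted p of 0.05, grey circles did not, and open diamonds give the value after the length correction. Circles and diamonds lie on the same side of 0 for the genes from Gapdh to Ldha and for the pentose phosphate genes, and on opposite sides for Hk1, Hk2 and Pdk1.

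HIF-1 binds DNA at ACGTG or GCGTG, and MYC at CACGTG, which contains ACGTG on both strands. RefSeq promoter windows (GRCm38.p6, 250 bases before to 50 bases after a start) were found for 35 of the 36 symbols, in 51 windows. Read on both strands, ACGTG or GCGTG was in 80.4% of these windows, beside 43.8% of all 32851 windows, and CACGTG in 13.7% beside 7.15%. The GC content of the windows differed too, with a median of 61% for these genes and 52.67% for all windows, so the 2 sets are not matched. The windows of 4 genes are shown, 5′ to 3′ on the gene's strand and with ACGTG and GCGTG (or their reverse complements) in capitals, as examples of genes that rose (Ldha, Pgk1, Slc16a3) or fell (Pfkfb3).

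Ldha, chr7:46845554-46845853, plus strand: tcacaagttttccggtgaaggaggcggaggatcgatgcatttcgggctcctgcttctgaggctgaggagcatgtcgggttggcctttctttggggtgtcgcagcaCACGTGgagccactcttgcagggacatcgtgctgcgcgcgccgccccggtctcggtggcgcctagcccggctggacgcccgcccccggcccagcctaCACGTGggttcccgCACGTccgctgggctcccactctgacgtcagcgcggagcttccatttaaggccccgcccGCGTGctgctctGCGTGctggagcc

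Pgk1, chrX:106186850-106187149, plus strand: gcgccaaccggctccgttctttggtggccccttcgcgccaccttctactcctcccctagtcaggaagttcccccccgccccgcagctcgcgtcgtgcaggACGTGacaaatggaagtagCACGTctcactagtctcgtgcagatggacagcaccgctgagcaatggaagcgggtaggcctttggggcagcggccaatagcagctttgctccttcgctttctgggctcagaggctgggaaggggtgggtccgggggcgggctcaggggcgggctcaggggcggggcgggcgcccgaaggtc

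Slc16a3, chr11:120948817-120949116, plus strand: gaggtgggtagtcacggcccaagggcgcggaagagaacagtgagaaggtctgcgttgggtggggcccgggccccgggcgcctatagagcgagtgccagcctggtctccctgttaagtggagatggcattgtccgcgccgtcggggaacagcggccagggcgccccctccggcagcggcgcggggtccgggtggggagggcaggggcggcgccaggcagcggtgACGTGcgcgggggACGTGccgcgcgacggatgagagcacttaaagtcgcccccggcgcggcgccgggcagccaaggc

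Pfkfb3, chr2:11502041-11502340, minus strand: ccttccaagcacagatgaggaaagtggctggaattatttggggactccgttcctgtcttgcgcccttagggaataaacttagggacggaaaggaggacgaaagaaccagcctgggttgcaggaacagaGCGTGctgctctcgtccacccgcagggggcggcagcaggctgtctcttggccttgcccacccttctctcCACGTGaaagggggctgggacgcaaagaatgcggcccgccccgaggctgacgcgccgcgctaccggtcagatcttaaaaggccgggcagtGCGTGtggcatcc

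The printed Ldha window held 7 matches, that of Pfkfb3 4, and those of Pgk1 and Slc16a3 2 each. For Ldha and Pfkfb3 the window with the most matches is printed. Another window of each, not printed, held 2 matches for Ldha and 1 for Pfkfb3, and no CACGTG. The printed window of a gene that fell, Pfkfb3, thus held CACGTG as did the printed window of Ldha, which rose. These are matches of letters, and binding was not measured.

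Before the length correction, none of the 5 genes of glucose entry and phosphorylation rose and 4 fell, beside 31.5% and 31.8% of all genes. Their median log2 fold change was -0.30. After the correction 2 rose and 2 fell, beside 36.5% and 22.3% of all genes, with a median of 0.06. Slc2a3 (chromosome 6, 122727809 to 122801640) encodes GLUT3, a glucose transporter of high affinity, and was at 77.0, 77.1 and 77.0 CPM in Tespa1+/+ and at 29.4, 24.2 and 25.2 CPM in Tespa1-/-. This was the largest fall among the 37 genes, 2.93-fold (-1.55 ± 0.08 SE on the log2 scale, edgeR adjusted p 4.31e-06), and it was -1.15 after the length correction, under which the second Aldoa gene fell more. Slc2a1 encodes GLUT1, the transporter for basal glucose uptake of most cells. It was at 38.4, 38.1 and 35.7 CPM in Tespa1+/+ and at 36.8, 39.5 and 36.1 CPM in Tespa1-/-, so its groups overlapped, and its change was 0.0023 on the log2 scale (SE 0.06, edgeR adjusted p 0.976) and -0.098 on library totals without TMM. Of the FPKM (count scaled by gene length and library total) summed over these 2 transporters, Slc2a1 held 49.8%, 49.5% and 48.0% in Tespa1+/+ and 71.3%, 76.4% and 74.1% in Tespa1-/-. That share differed by 24.8 percentage points (exact permutation test, two-sided, p = 0.1, the smallest that 3 against 3 libraries allow). Of 15 isoenzyme shares compared in 9 families, 13 had this smallest p, which was 0.115 after Benjamini-Hochberg adjustment over the 15, so that no share could pass.

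Hexokinases phosphorylate glucose and so trap it in the cell. Hk3, the hexokinase found mainly in myeloid cells, was at 326, 336 and 335 CPM in Tespa1+/+ and at 219, 231 and 228 CPM in Tespa1-/-. It fell by 0.56 on the log2 scale (SE 0.03, edgeR adjusted p 8.18e-06), and by 0.47 after the length correction. Hk1, the hexokinase of most tissues, was at 323, 337 and 339 CPM against 272, 268 and 274 CPM. Its change of -0.30 on the log2 scale (SE 0.03, edgeR adjusted p 0.000124) turned to 0.17 after the length correction, with an adjusted p of 0.00238. Hk2, the insulin- and HIF-responsive hexokinase, was at 183, 179 and 173 CPM against 152, 156 and 158 CPM, and its log2 fold change of -0.20 (adjusted p 0.00176) turned to 0.10 (adjusted p 0.0417) after it; a correction on the length implied by the FPKM gave 0.12 for Hk1 and -0.034 for Hk2 (adjusted p 0.444). Both groups of libraries were apart for each hexokinase, but only Hk3 was lower with and without the correction. The median of all genes after the correction on union exon length was 0.11, so the 0.10 of Hk2 was no rise beside a typical gene. Within the summed FPKM of the 3 hexokinases, the share of Hk3 went from 50.7% ± 0.382 (SD, n = 3) to 45.4% ± 0.577, that of Hk2 from 24.2% ± 0.836 to 27.7% ± 0.137, and that of Hk1 from 25.1% ± 0.456 to 26.9% ± 0.589. Each of these 3 shares had the smallest p possible in an exact permutation test, 0.1.

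The steps on hexose phosphates gave both directions: 5 of 10 genes rose, 3 fell and 2 did not pass, with a median of 0.25. Over all genes, 31.5% rose and 31.8% fell. Gpi1, which turns glucose 6-phosphate into fructose 6-phosphate, was at 705, 679 and 709 CPM in Tespa1+/+ and at 956, 889 and 959 CPM in Tespa1-/-, a rise of 0.42 (SE 0.04, edgeR adjusted p 5.2e-05). Phosphofructokinase makes the committed step of glycolysis, and its 3 genes did not move together. The liver-type Pfkl was at 196, 207 and 218 CPM against 245, 266 and 245 CPM, a rise of 0.28. The platelet-type Pfkp was at 140.4, 147 and 157 CPM against 166, 180.5 and 168 CPM. It rose by 0.21 (edgeR adjusted p 0.0101), and with library totals in place of TMM scaling this was 0.11 and did not pass (adjusted p 0.106). After the length correction it was 0.89 (edgeR adjusted p 2.06e-05), beside the median of 0.11 of all genes. On the length implied by the FPKM it was 0.75, so its size depended strongly on the correction. The muscle-type Pfkm was at 57.4, 55.3 and 51.6 CPM against 41.3, 47.3 and 44.8 CPM, and fell by 0.30 (SE 0.07, edgeR adjusted p 0.00615). In the summed FPKM of the 3 genes, Pfkm went from 24.9% ± 1.998 (SD, n = 3) to 18.3% ± 0.586 and Pfkl from 55.5% ± 1.43 to 61.2% ± 0.586 (exact permutation p = 0.1 for each).

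**Figure D3:**
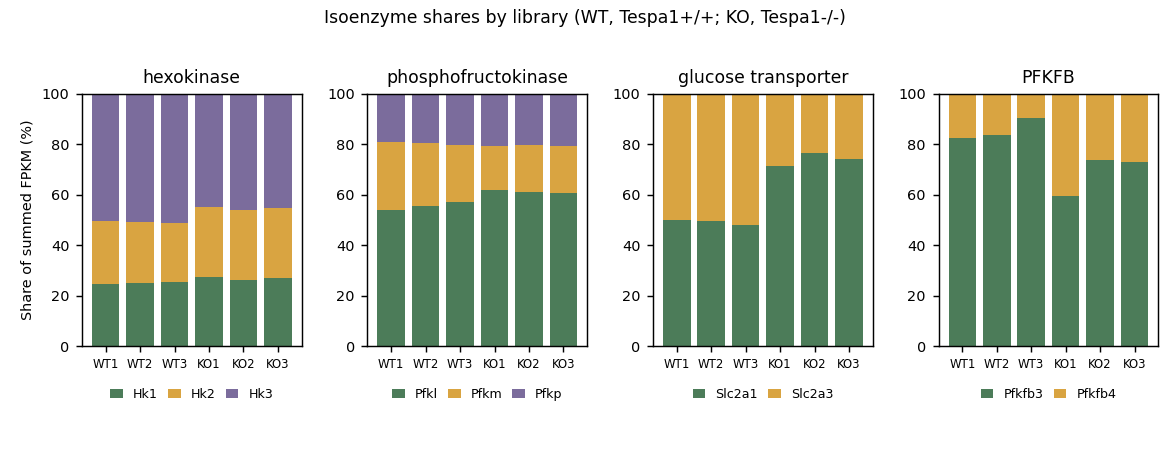
Share (%) of each isoenzyme gene in the summed FPKM of its family, as 1 stacked bar per library, with WT for Tespa1+/+ and KO for Tespa1-/-. Slc2a1 fills 48.0% to 49.8% of the transporter bars in Tespa1+/+ and 71.3% to 76.4% in Tespa1-/-, while the hexokinase and phosphofructokinase shares shift by fewer points.

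Pfkfb3 and Pfkfb4 encode bifunctional enzymes that set the level of fructose 2,6-bisphosphate, the activator of phosphofructokinase. Pfkfb3 (chromosome 2, 11471433 to 11554077) was at 53.7, 55.7 and 96.5 CPM in Tespa1+/+ and at 24.8, 25.6 and 40.7 CPM in Tespa1-/-. Replicate 3 was the highest of each group, and the groups did not overlap. The fall of 1.18 on the log2 scale (SE 0.28, edgeR adjusted p 0.00842) was 2.26-fold. After the length correction the log2 fold change was -0.76 and just missed the threshold (adjusted p 0.0506). On the length implied by the FPKM it was -0.56 and did not pass (adjusted p 0.122). Pfkfb4 was at 5.23, 5.004 and 4.79 CPM against 7.69, 4.13 and 6.94 CPM, and these groups overlapped. Its log2 fold change of 0.32 did not pass (adjusted p 0.235), but was 0.56 and passed (adjusted p 0.00737) without Tespa1-/- replicate 2, the library with the lowest value.

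Aldolase splits fructose 1,6-bisphosphate into 2 trioses. The main Aldoa gene (ENSMUSG00000030695) was at 412, 516 and 525 CPM in Tespa1+/+ and at 811, 714 and 829 CPM in Tespa1-/-, and rose 1.62-fold (0.70 ± 0.10 SE on the log2 scale, edgeR adjusted p 0.000689). The second gene under that symbol (ENSMUSG00000114515, chromosome 7, 126800790 to 126809108 on the minus strand in GRCm38) lies next to the main one, which spans 126795234 to 126800751. It was at 2.09, 2.28 and 3.24 CPM against 1.29, 1.52 and 1.13 CPM and fell by 0.92 (SE 0.23, edgeR adjusted p 0.0103), and by 1.29 after the length correction. Aldoc, the brain-type aldolase, was near the lower end of the range with 1.76 to 3.74 CPM and did not pass (adjusted p 0.112). Tpi1, which interconverts the 2 trioses, was at 280.4, 294 and 285 CPM against 462, 456 and 440.7 CPM, a rise of 0.66 (SE 0.03, edgeR adjusted p 3.86e-06) that was 0.64 after the length correction.

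From glyceraldehyde 3-phosphate to pyruvate all 6 genes rose, with a median log2 fold change of 0.59, and none of their groups overlapped. Over all genes, 31.5% rose, and the groups did not overlap for 69.1%. After the length correction 5 of the 6 passed, with a median of 0.62. Eno1, the widely expressed enolase (chromosome 4, 150236721 to 150248879), was at 221, 236 and 225 CPM in Tespa1+/+ and at 484, 510.0 and 481 CPM in Tespa1-/-. It had the largest rise of the 37 genes, 2.16-fold (1.11 ± 0.04 SE on the log2 scale, edgeR adjusted p 1.33e-06; 1.36 after the length correction). Pgk1, the first ATP-yielding enzyme of the pathway, was at 283, 292 and 282 CPM against 467, 470.3 and 462 CPM, a rise of 0.71. Pgam1, the phosphoglycerate mutase of most tissues, was at 400.3, 407 and 401 CPM against 649, 638 and 667 CPM, a rise of 0.69. Pkm, the pyruvate kinase of most tissues other than liver, was at 1019.6, 1089 and 1066 CPM against 1410.5, 1436 and 1445 CPM. It rose by 0.43 (SE 0.03, edgeR adjusted p 1.58e-05). Eno3, the muscle enolase, was at 6.77 to 7.89 CPM against 8.92 to 9.30 CPM; its rise of 0.33 (adjusted p 0.0191) was 0.17 and did not pass after the length correction (adjusted p 0.154), nor with DESeq2 (0.133), and it no longer passed without any one of 3 of the 6 libraries (Tespa1+/+ replicates 1 and 2, Tespa1-/- replicate 2; adjusted p 0.0559, 0.0533 and 0.0512).

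Gapdh, which oxidises glyceraldehyde 3-phosphate, was at 75.2, 70.8 and 73.7 CPM in Tespa1+/+ and at 111, 88.7 and 108 CPM in Tespa1-/-, so that all Tespa1-/- libraries were higher and replicate 2 was the lowest of them. It rose by 0.49 on the log2 scale (SE 0.09, edgeR adjusted p 0.00188). These levels are a small part of the counts of genes that share Gapdh sequence. The annotation holds 56 genes that share at least 5% of the 50-base windows of the longest Gapdh transcript, and 52 of them are pseudogenes. Gapdh's own gene held 4.62% to 5.12% of the counts of the family in Tespa1+/+ and 3.55% to 4.58% in Tespa1-/-. The pseudogene Gm12070 alone was at 632, 676 and 663 CPM against 1089.6, 1136 and 1068 CPM. The first 60 coding bases of Gapdh are shown with those of 2 of its copies, with a base that differs from Gapdh in capitals, to show how alike they are.

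Gapdh: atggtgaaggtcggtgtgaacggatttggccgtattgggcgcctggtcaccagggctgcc

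Gm12070: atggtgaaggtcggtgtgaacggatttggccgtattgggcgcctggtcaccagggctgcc

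Gm2451: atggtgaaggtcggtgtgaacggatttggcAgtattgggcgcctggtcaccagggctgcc

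Over the 1002 coding bases, Gm12070 (chromosome 11, 26786633 to 26787634, GRCm38) and Gm5559 (chromosome 5, 95861714 to 95862715) each differed from Gapdh (chromosome 6, 125161715 to 125166467) at 1 base, and Gm2451 (chromosome 3, 139649379 to 139650377) at 4 of 999 bases compared. The first 60 bases of Gm5559 were those of Gapdh. The sequences are those of the GENCODE M21 transcripts. Summed with its copies, Gapdh was at 1466, 1532 and 1519 CPM in Tespa1+/+ and at 2432, 2499 and 2428 CPM in Tespa1-/-. The sum rose by 0.70 on the log2 scale (SE 0.02, edgeR adjusted p 1.5e-06), more than Gapdh's own gene. In the study, mRNA levels in qPCR were given relative to Gapdh. The forward primer cctcgtcccgtagacaaaatg and the reverse primer tctccactttgccactgcaa, both 5′ to 3′, matched 6 and 11 annotated genes exactly, and together, in the order that gives a product, 2 genes, Gapdh and the pseudogene Gm7336.

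Copies bore on other genes of the pathway as well, 13 of the 37 in all, with 78 copies. Reads that match both a gene and a copy could not be assigned here either, so levels and shares are those of the deposited counts. Eno1's own gene held 28.5% to 29.6% of its family's counts in Tespa1+/+ and 32.2% to 39.5% in Tespa1-/-. The pseudogene Gm4735 was at 388, 390.5 and 390.5 CPM against 741, 751 and 741 CPM, and Eno1b, annotated as protein-coding, at 158, 163 and 162 CPM against 261, 14.2 and 253 CPM. The 14.2 CPM of Tespa1-/- replicate 2 stood apart from the other Tespa1-/- libraries, and Eno1b did not pass (adjusted p 0.899). With its copies summed, Eno1 rose by 0.86 (SE 0.06, edgeR adjusted p 1.54e-05), less than the 1.11 of its own gene and less than the 1.06 of Slc16a3, so that its rise was then not the largest of the 37 genes. Pgk1 and its copies, of which Pgk1-rs7 was the most counted, rose by 0.70, close to the 0.71 of Pgk1 alone. Exons of Bnip3, G6pdx, Gpi1, Pdha1, Pfkm and Pkm overlap those of another gene over more than 10% of their length. For Pfkm and Pkm that gene lies on the same strand, so strand could not set its reads apart. For Bnip3, G6pdx, Gpi1 and Pdha1 it lies on the opposite strand. Whether counting used strand is not given in the sources used here, so reads of that neighbour cannot be told apart either. Summing copies changed the direction or the call of none of the 37 genes, although Gapdh then exceeded a fold of 1.5.

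**Figure D4:**
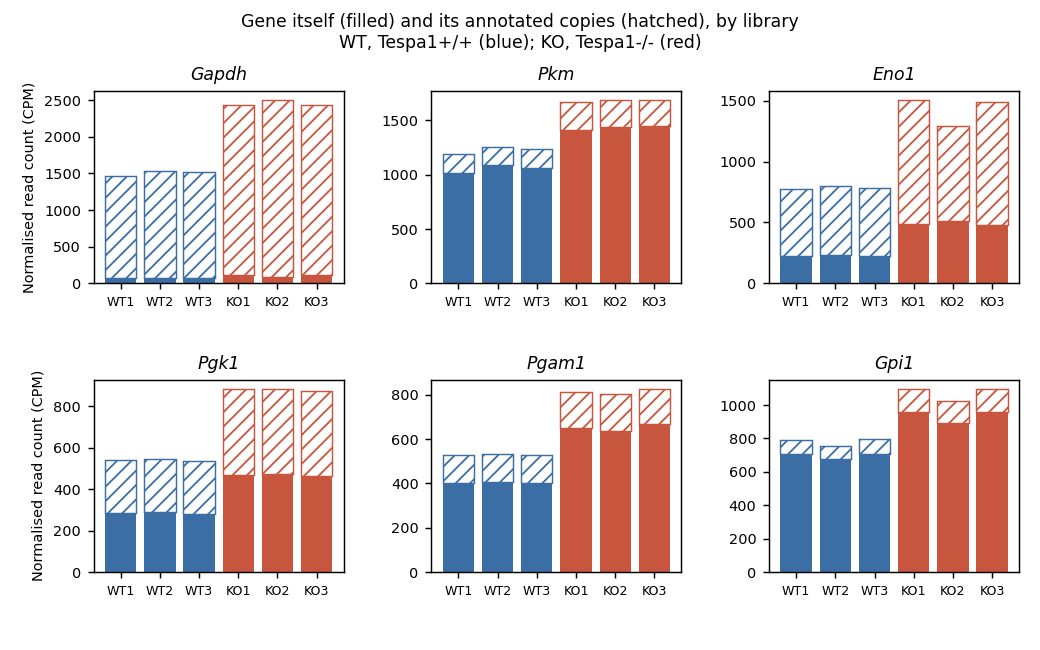
Normalised read count (CPM) of 6 glycolytic genes (filled) and of their annotated copies (hatched) in each library, with WT for Tespa1+/+ and KO for Tespa1-/-. The Gapdh gene fills 3.55% to 5.12% of its bars, the sum of gene and copies is higher in each Tespa1-/- library for all 6 genes, and the Eno1 sum is lowest among the Tespa1-/- libraries in replicate 2, at 1292 CPM.

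At the pyruvate branch point, the genes of lactate formation and export rose and that of 1 kinase of pyruvate dehydrogenase fell. In all, 5 of 8 genes rose, 1 fell and 2 did not pass, with a median of 0.30. Over all genes, 31.5% rose and 31.8% fell. Ldha, the main lactate dehydrogenase subunit (chromosome 7, 46841475 to 46855627), is the gene with 1 of its promoter windows printed above. It was at 598, 614 and 617 CPM in Tespa1+/+ and at 1014, 1037 and 1017 CPM in Tespa1-/-, far apart relative to the spread in each group. It rose 1.68-fold (0.75 ± 0.02 SE on the log2 scale, edgeR adjusted p 1.19e-06; 0.79 after the length correction). Slc16a3 (chromosome 11, 120948480 to 120960868) encodes MCT4, the lactate exporter of glycolytic cells, and was at 13.4, 15.4 and 15.6 CPM against 30.1, 30.3 and 32.1 CPM, a 2.08-fold rise (1.06 ± 0.08 SE on the log2 scale, edgeR adjusted p 2.74e-05). Slc16a1, which encodes the widely expressed transporter MCT1, was at 169, 173 and 167 CPM against 237, 232 and 236 CPM, a rise of 0.47. Slc16a1 still held most of the summed FPKM of the 2 transporters, 95.8% ± 0.335 (SD, n = 3) in Tespa1+/+ and 93.8% ± 0.196 in Tespa1-/- (exact permutation p = 0.1). Ldhb, the subunit that favours lactate oxidation, was low at 5.61 to 7.55 CPM against 8.13 to 11.05 CPM. Its rise of 0.54 (adjusted p 0.0214) was 0.37 after the length correction and did not pass (adjusted p 0.0914), and it also failed without any one of Tespa1+/+ replicates 1 and 2 and Tespa1-/- replicate 3 (adjusted p 0.0588, 0.0705 and 0.0591). Ldha made up 97.2% ± 0.414 and 97.5% ± 0.415 of the 2 subunits' FPKM, a difference smaller than either SD (exact permutation p = 0.4).

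Pyruvate dehydrogenase kinases switch off the entry of pyruvate into the citric acid cycle. Pdk2 was at 6.39, 6.02 and 6.27 CPM in Tespa1+/+ and at 3.87, 4.48 and 4.03 CPM in Tespa1-/-, a fall of 0.59 (SE 0.11, edgeR adjusted p 0.00213) that was 0.57 after the length correction. Pdk1, a known HIF-1 target, was at 129, 127 and 122 CPM against 122, 118 and 112 CPM. Its log2 fold change of -0.11 did not pass (adjusted p 0.0673) and turned to 0.32 with an adjusted p of 0.000574 after the length correction. Pdk3 was at 51.4 to 54.1 CPM against 52.1 to 54.9 CPM, with overlapping groups and a log2 fold change of 0.016 (adjusted p 0.776; -0.084 on library totals). Pdha1, the catalytic subunit of pyruvate dehydrogenase on which these kinases act, was at 253, 255 and 254 CPM against 282, 277 and 278 CPM. It rose by 0.14 (adjusted p 0.00254), and by 0.035 without passing (adjusted p 0.2598) when library totals replaced TMM scaling.

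All 4 pentose phosphate genes rose, with a median log2 fold change of 0.51, and they still rose after the length correction with a median of 0.67. Over all genes, 31.5% rose, and 36.5% after the correction. Pgd, the second NADPH-yielding enzyme of the oxidative branch, was at 322, 331 and 328 CPM in Tespa1+/+ and at 526, 535 and 521 CPM in Tespa1-/-, a rise of 0.69 (SE 0.02, edgeR adjusted p 1.63e-06). G6pdx, the enzyme that opens the pathway, was at 133, 133 and 141 CPM against 164, 157 and 151 CPM. Its rise of 0.22 (adjusted p 0.00403) was the smallest of the 4, and it was 0.12 without passing (adjusted p 0.0528) on library totals. Taldo1 (transaldolase) and Tkt (transketolase) link the pathway back to glycolysis. Taldo1 was at 255, 269 and 271 CPM against 399, 416 and 381 CPM, a rise of 0.59, and Tkt at 979, 1058 and 1039.7 CPM against 1388, 1413 and 1363 CPM, a rise of 0.44. Tkt was also among the most abundant of the 37 genes per length, with a mean FPKM of 110.4 ± 4.31 (SD, n = 3) in Tespa1+/+ and 139 ± 2.61 in Tespa1-/-.

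Of the 4 hypoxia genes 2 rose, beside 31.5% of all genes, and 2 did not pass. Their median was 0.09, and neither rise was over 1.5-fold. After the length correction 3 rose, with a median of 0.29. Bnip3, a mitophagy receptor and known HIF-1 target, was at 8.04, 8.87 and 11.1 CPM in Tespa1+/+ and at 14.4, 11.8 and 12.7 CPM in Tespa1-/-. It rose by 0.48 (SE 0.14, edgeR adjusted p 0.0187), and did not pass without Tespa1+/+ replicate 2 (adjusted p 0.0563) or without Tespa1-/- replicate 1 (0.0604). Hif1a, the oxygen-regulated subunit of HIF-1, was at 75.3, 68.6 and 71.5 CPM against 79.7, 80.5 and 77.1 CPM. Its rise of 0.14 (adjusted p 0.033) did not pass with DESeq2 (adjusted p 0.110), on library totals (0.491), or without any one of Tespa1+/+ replicates 2 and 3 and Tespa1-/- replicates 1 and 2 (0.0623 to 0.081), and was 0.44 (adjusted p 0.000214) after the length correction. Hif1a is regulated mainly through the stability of its protein, which these data do not measure. Vegfa, the angiogenic growth factor, was at 42.2, 44.3 and 44.9 CPM against 45.0, 42.4 and 46.8 CPM, and Egln3, a HIF prolyl hydroxylase, at 76.0, 73.7 and 76.9 CPM against 78.8, 75.6 and 76.5 CPM. Both groups overlapped for each of the 2 genes, and neither passed: the log2 fold change was 0.029 for Vegfa (adjusted p 0.673) and 0.027 for Egln3 (adjusted p 0.564), and -0.071 and -0.073 on library totals, a scaling that shifted the median of all genes by -0.10. Vegfa was 0.18 and passed after the length correction (adjusted p 0.0267), where the median of all genes was 0.11.

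Per length, the order of the 37 genes was led in both groups by Pgam1 and Pkm. In Tespa1+/+ these 2 stood at a mean FPKM of 149 ± 1.20 and 148 ± 4.78 (SD, n = 3), closer than their spread, and in Tespa1-/- at 224 ± 4.92 and 187 ± 2.53, which no longer met. Hk3 went from place 10 to place 15 and Slc2a3 from place 26 to place 32 of 37, while Eno1 went from place 15 to place 12. Copies were left out of this order for every gene, Eno1 included, whose own gene held 28.5% to 39.5% of its family's counts. Gapdh's own gene was only at place 25 and 21. The lowest level was that of Aldoc in both groups, at 0.551 ± 0.128 and 0.372 ± 0.0812. The length used in the deposited FPKM was longer than the union of the annotated exons for 35 of the 37 genes, all but Slc16a1 and Egln3, so that this order holds only for the deposited scale.

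Other genes of these pathways were looked at from a list of 87, of which 67 entered the test. Of these, 33 rose, 15 fell and 19 did not pass, with a median log2 fold change of 0.21, against the 31.5% and 31.8% of all genes that rose and fell. Beside Pdha1, both subunits of the mitochondrial pyruvate carrier rose (Mpc1 by 0.72, adjusted p 0.000293, and Mpc2 by 0.61, adjusted p 0.000373), as did the other pyruvate dehydrogenase complex genes on the list, Pdhb by 0.41, Pdhx by 0.32, Dlat by 0.21 and Dld by 0.57. On library totals Dlat was 0.11 and did not pass (edgeR adjusted p 0.0602). The phosphatases that reverse the action of the kinases, Pdp1 and Pdp2, did not pass (adjusted p 0.0891 and 0.0766). On library totals both fell and passed, at -0.37 and -0.27 (edgeR adjusted p 0.0304 and 0.0139). After the length correction neither passed, at -0.097 and 0.11 (edgeR adjusted p 0.523 and 0.219). These genes were named after their values were seen. Among genes over 1.5-fold with a mean count of at least 100, the largest rises were those of Rbks (ribokinase, 0.90, adjusted p 0.000133), Tfrc (the transferrin receptor, a HIF and iron target, 0.81, adjusted p 1.77e-05) and Mif (a cytokine with HIF-bound regulatory sequence, 0.76, adjusted p 3.43e-06). The largest falls by the same rule were those of Pfkfb2 (another fructose 2,6-bisphosphate enzyme, -1.66, adjusted p 3.37e-05), Plod2 (a collagen lysyl hydroxylase, -1.11, adjusted p 0.00153) and Slc16a7 (the monocarboxylate transporter MCT2, -0.98, adjusted p 0.0383). Pfkfb2 was at 10.8, 12.1 and 11.9 CPM against 3.76, 4.20 and 3.06 CPM, so that of the 4 genes for this bifunctional enzyme, all tested, Pfkfb2 and Pfkfb3 were lower in every Tespa1-/- library. Slc16a7 overlapped between the groups, at 17.7, 9.12 and 18.1 CPM against 7.10, 10.4 and 4.92 CPM, and was -0.36 without passing (adjusted p 0.399) after the length correction. In the hypoxia part of the list, 11 of 27 genes tested rose, 8 fell and 8 did not pass, beside the 31.5% and 31.8% of all genes that rose and fell.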

How the data were processed

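Gene symbols and lists were chosen with earlier results of these data known. Libraries were poly-A selected, stranded and paired-end, read on a NovaSeq. The authors deposited 1 table with raw counts and FPKM per gene and library. The submitters' processing notes name CASAVA 1.8, HISAT2, StringTie, edgeR and GRCm38. The counting tool, its strand setting and its treatment of reads that match more than 1 gene are not given in the sources used here. Deposited counts are whole numbers without normalisation, and deposited FPKM equals the count divided by the library total and 1 fixed length per gene. Of 55487 genes, 54784 had the coordinates of GENCODE M21 (GRCm38). Exons of 15 of the 37 genes overlap another gene, over 10% of their length in 6 (Bnip3, G6pdx, Gpi1, Pdha1, Pfkm, Pkm).

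Total counts were 12856630 to 30576981 per library; the lowest count of any of the 37 genes in a library was 14. Groups were taken from the sample titles. All genes passing filterByExpr were tested in edgeR 4.0.16 (R 4.3.3; TMM scaling, quasi-likelihood F-test, 6 libraries, no covariates) with Benjamini-Hochberg adjustment; the threshold was 0.05 on the adjusted p, and a minimum fold of 1.5 applies only where stated. Shares of isoenzymes in summed FPKM were compared with exact two-sided permutation tests (scipy 1.17.1), 15 shares in 9 families. The length correction took, per library, a loess fit (span 0.5) of the log2 CPM deviation on log2 union exon length as an offset. A copy is an annotated gene sharing at least 5% of the 50-base windows of a gene's longest transcript; summing copies was chosen after seeing the data. All 37 genes were named by role; of the other pathway genes, the 3 largest rises and 3 largest falls over 1.5-fold with a mean count of at least 100. Scripts were tested on simulated counts.

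Alternatives were DESeq2 1.42.0, other scalings, filters, limma-trend (limma 3.58.1) on log2(FPKM + 1) and log2(FPKM + 0.1), 2 length corrections, the study's cutoff (unadjusted p under 0.05 and fold over 1.5, for the counts over 1.5-fold only), the replicate number as a block, and each library left out.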

Additional observations from a re-analysis of the deposited data

How the results depend on the processing

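Of the 37 genes, 21 held to the same direction and side of the threshold under every alternative in which they were fitted, and 16 did not under at least 1. The study's cutoff was applied only to the counts over 1.5-fold. Aldoc, counted among the 21, and Pfkfb4 stayed under an FPKM of 1 in every library and were not fitted by limma-trend. The cause of the changes was not tested. Without 1 library at a time, 18 to 21 genes rose and 8 fell, and over 1.5-fold 8 to 11 rose and 3 or 4 fell. Under the length correction on union exon length, 5 fell, and over 1.5-fold 14 rose and 2 fell; on the length implied by FPKM, 5 fell. With copies summed, a choice made after seeing the data, 10 rose over 1.5-fold. Other scalings, filters, DESeq2 and limma-trend gave 16 to 22 genes that rose and 8 or 9 that fell. The study's cutoff gave 9 that rose and 4 that fell over 1.5-fold.

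Some values changed sign. Hk1 was 0.17 and 0.12 and Pdk1 0.32 and 0.27 under the length corrections on union exon length and implied length, and Hk2 was 0.10 under the first. Slc2a1 was -0.098 on library totals, -0.021 with at least 10 counts required in every sample, -0.085 and -0.096 with limma-trend (pseudocounts 1 and 0.1), and -0.029 to 0.035 without 1 library. Pdk3 was -0.084 on library totals, -0.0074 with 10 counts required, -0.079 and -0.083 with limma-trend, -0.031 and -0.019 under the length corrections, and -0.0051 to 0.044 without 1 library. Vegfa was -0.071 on library totals and -0.061 and -0.0698 with limma-trend. Egln3 was -0.073 on library totals, -0.071 and -0.073 with limma-trend, and -0.0078 and -0.028 under the length corrections.

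Both groups use the same replicate numbers, and the correlations of same-numbered libraries were 0.0459, 0.0107 and 0.0595. These values were small, but each library correlated best with its own number. Whether the numbers pair the libraries was thus not settled, and the main fit used no block. In the fit blocked on replicate number, 21 genes rose and 9 fell: Pdk1 passed at -0.11 (adjusted p 0.0454) and Hif1a, at 0.14, did not (adjusted p 0.052). Isoenzyme shares without overlap were 13 of 15, and 12 to 14 under the alternatives. For the lowest genes, such as Aldoc and the second Aldoa gene, depth limits what could be seen.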
